A study of Mus musculus with 8 samples.

Results

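The genes described here are 38 mouse genes of the cell cycle and DNA replication, found by symbol among the 55335 genes of a liver RNA count table. They fall into 8 regulators of entry into S phase (G1/S), 13 genes of DNA replication and 17 genes of G2 and mitosis. All 38 were in the table, and 35 of them were among the 15234 genes with enough counts to be tested. Cdc6, Ccnb1 and Bub1 were too low for the test and are described by their levels alone.

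Liver RNA was sequenced from 8 female mice, all fed ethanol by the chronic-plus-binge scheme of the NIAAA, in which a liquid ethanol diet is followed by an ethanol gavage. By their labels, mice 28, 34, 37 and 39 lacked Ripk1 in hepatocytes alone (Ripk1-hepKO), and mice 29, 32, 40 and 41 were the controls (Ripk1-Con). RIPK1 is a kinase and scaffold of the signalling complexes below death receptors, and the study asked, per its title, how it limits liver injury by alcohol. Each group holds 4 independent animals, genotype was the variable compared, and mice off ethanol were not analysed here. Strain, age and the driver of the deletion are not given in the sources used here.

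Most cells of the adult liver rest outside the cell cycle, and hepatocytes re-enter it after tissue is lost or injured. D-type cyclins with CDK4, and cyclin E with CDK2, then inactivate the retinoblastoma protein and free E2F transcription factors, which switch on the genes of DNA replication. A later wave of genes, held off at rest by the DREAM complex and switched on by MYB and FOXM1 factors, with CHR and CCAAT elements in their promoters, carries the cell through G2 and mitosis. In bulk tissue, fewer cells in the cycle and less RNA per cycling cell cannot be told apart, and neither can hepatocytes and other dividing liver cells.

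Promoter stretches are printed for 6 members because replication and mitosis genes, which the results treat apart, are known for different short promoter elements. RefSeq windows (build GRCm38.p6) from 250 bases before to 50 after the transcription start were matched for 30 of the 38 members, with no entry for Ccnd1, Ccnd2, Ccne2, Mcm4, Gins2, Ccna2, Aurkb and Tpx2. Capitals mark matches on either strand to E2F letters (TTTCCCGC, TTTCGCGC, TTTGCCGC or TTTGGCGC), CHR letters (TTTGAA or TTCGAA) and the letters CCAAT. A match on the opposite strand appears as its reverse complement, such as ATTGG for CCAAT. All stretches are written 5′ to 3′ on the strand of the gene.
Mcm6 (minus strand, chr1:128359706-128359825): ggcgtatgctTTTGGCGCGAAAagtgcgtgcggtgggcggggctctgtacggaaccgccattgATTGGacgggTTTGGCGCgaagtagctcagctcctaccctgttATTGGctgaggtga
Mcm5 (plus strand, chr8:75109349-75109448): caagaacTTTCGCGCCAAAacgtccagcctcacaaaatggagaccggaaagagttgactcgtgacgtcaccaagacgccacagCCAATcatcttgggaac
Cdk1 (minus strand, chr10:69352913-69353052): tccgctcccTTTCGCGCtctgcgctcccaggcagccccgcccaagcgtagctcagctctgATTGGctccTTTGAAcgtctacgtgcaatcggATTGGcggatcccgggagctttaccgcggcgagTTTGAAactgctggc
Top2a (minus strand, chr11:99024190-99024384): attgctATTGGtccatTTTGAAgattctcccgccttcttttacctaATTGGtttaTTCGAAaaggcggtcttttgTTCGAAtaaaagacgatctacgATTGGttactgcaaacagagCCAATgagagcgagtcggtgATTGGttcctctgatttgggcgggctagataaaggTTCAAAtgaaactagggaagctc
Cdc20 (minus strand, chr4:118437344-118437403): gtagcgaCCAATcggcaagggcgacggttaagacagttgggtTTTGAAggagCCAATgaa
Ccnb1 (minus strand, chr13:100786537-100786596): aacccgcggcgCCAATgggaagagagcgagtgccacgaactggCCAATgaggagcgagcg

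The Mcm6 and Mcm5 stretches each hold 2 E2F matches that overlap on opposite strands. E2F letters occurred in the windows of 6 of 11 matched replication genes, 2 of 5 G1/S regulators and 1 of 14 mitosis genes, the last being Cdk1. Over all 27025 genes of the RefSeq promoter table, 2.6% had them. CHR letters occurred in 10 of 14 mitosis genes, 2 of 11 replication genes and 1 of 5 G1/S regulators, against 21.7% of all genes. The letters CCAAT occurred in 12 of 14 mitosis genes, 8 of 11 replication genes and 2 of 5 G1/S regulators, against 41.1% of all genes. These are matches of letters and were not tested as binding sites.

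The libraries held 28038390 to 67328158 counts, and levels below are in CPM, the count of a gene per fixed total of counts, scaled by TMM, a method that sets libraries of different depth and composition on a common scale. At these depths, 3 counts in a library correspond to 0.0485 to 0.0996 CPM, which serves as the floor of detection for counting error. Ripk1, a check of the labels, stood at 23.1 to 38.1 CPM in the 4 Ripk1-hepKO mice and at 27.8 to 53.6 CPM in the 4 Ripk1-Con mice (edgeR's quasi-likelihood test, log2 fold change -0.21 ± 0.22 (SE), adjusted p = 0.866). These ranges overlap. A count over the whole gene can miss a deletion of a few exons, and liver cells other than hepatocytes should still hold Ripk1, so the groups below rest on the labels alone. Alb, a hepatocyte marker, stood at 48465 to 90592 CPM, so the tissue label held in every mouse. Ripk1-hepKO mouse 28 stood apart from the other 7 libraries, so the fold changes of the genes described one by one are given with and without it. It had the highest level of the 8 mice for 26.3% of the 15234 genes tested and at least 2 times the median of the other 7 for 8.77% of them.

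None of the 35 tested members passed a false discovery rate of 0.05 between the genotypes by edgeR's quasi-likelihood test, and the lowest adjusted p among them was 0.742. The same held for all genes, of which 0 passed (0%), while the DESeq2 Wald test called 36 genes and 0 of the members. At an unadjusted p under 0.05, 9 members (25.7%) were higher in Ripk1-hepKO and 0 were lower. Over all genes tested these shares were 3.86% (588 genes) higher and 2.82% (429 genes) lower. The 9 were E2f1 and E2f2 among the G1/S regulators, Mcm3, Mcm6, Gins2 and Pcna among the replication genes, and Ccna2, Top2a and Nusap1 among the mitosis genes.

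The groups did not overlap for 3 members, E2f1, E2f2 and Ccna2, each higher in Ripk1-hepKO (8.57% of members tested, against 2.01% of all genes). Of the 35, 31 had a log2 fold change above 0, with a median of 0.63, while over all genes 51.8% were above 0 and the median was 0.01.

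Without mouse 28, 6 of the 9 members kept an unadjusted p under 0.05. They were E2f1, E2f2, Mcm3, Mcm6, Gins2 and Ccna2 (17.1% of the members tested), with 0 lower, against 2.7% of 15500 genes higher and 3.05% lower in that fit. Again 0 genes passed the false discovery rate (0%). The same 3 members had groups that did not overlap, while 3.31% of all genes did so in the higher direction when only 3 Ripk1-hepKO mice were compared. The median log2 fold change of the 35 members became 0.19. Of the 31 members above 0 with all mice, 22 were above 0 without mouse 28, as were 4 that had been below 0 (Ccnd1, Ccne2, Mcm7 and Rrm1). Without Ripk1-Con mouse 29, which had the lowest E2f1, E2f2 and Mcm3, 5 members had an unadjusted p under 0.05.

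**Figure D1:**
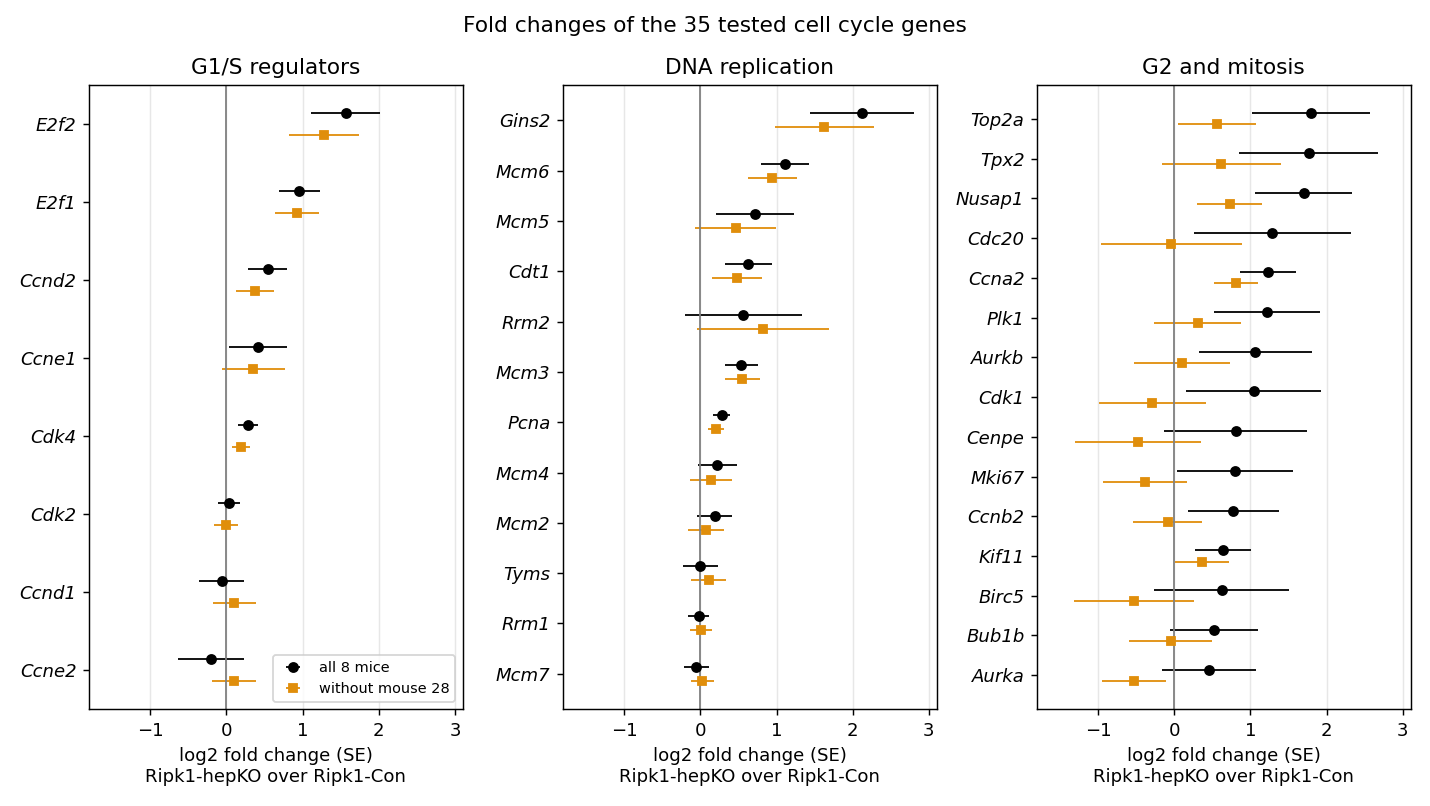
Log2 fold changes (Ripk1-hepKO over Ripk1-Con, horizontal axis) of the 35 tested members with their standard errors, in 3 panels by role, with all 8 mice (black circles) and without mouse 28 (orange squares). Without mouse 28 all 12 replication genes lie above 0, while the mitosis genes shift to the left and 8 of 15 lie below 0.

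Among the G1/S regulators, E2f1 and E2f2 were the members whose groups separated. Both encode activating E2F factors that drive the genes of S phase. E2f1 lies at ENSMUSG00000027490, chr2:154559407-154569892, minus strand (GRCm38, as are all positions), and E2f2 at ENSMUSG00000018983, chr4:136172394-136196057, plus strand. In CPM, E2f1 stood at 1.98, 1.62, 2.1 and 1.73 in the knockout mice (always given in the order 28, 34, 37 and 39). In the controls (29, 32, 40 and 41) it stood at 0.6, 1.2, 0.83 and 1.16. Every Ripk1-hepKO mouse was above every Ripk1-Con mouse, with mouse 37 the highest and mouse 28 in the upper part of its group. Its log2 fold change was 0.96 ± 0.27 (SE; edgeR's quasi-likelihood test, unadjusted p = 0.0059, adjusted p = 0.742), and it was 0.93 without mouse 28.

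E2f2 stood at 1.1, 0.558, 0.864 and 0.379 CPM in Ripk1-hepKO, against 0.143, 0.307, 0.332 and 0.19 CPM in Ripk1-Con. Again the groups did not overlap, although mouse 39 lay close to the highest control mice, and the lowest library held 5 counts. This gave a log2 fold change of 1.56 ± 0.45 (unadjusted p = 0.00642), and 1.28 without mouse 28.

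The cyclins and kinases of G1 did not separate the genotypes. Ccnd1 encodes cyclin D1, the D cyclin that hepatocytes use on leaving rest, and it was the most abundant member per kilobase of exon (19.7 CPM per kilobase over 8 mice). It stood at 57.5, 77.1, 76.7 and 152 CPM in Ripk1-hepKO, against 69.4, 86.2, 106 and 117 CPM in Ripk1-Con. The lowest and the highest values were both in Ripk1-hepKO, in mice 28 and 39. Its log2 fold change was -0.06, with a 95% confidence interval from -0.73 to 0.60, and it was 0.10 without mouse 28.

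Ccnd2, which encodes cyclin D2, stood at 12, 5.97, 6.49 and 11.8 CPM in Ripk1-hepKO, against 6.73, 5.11, 7.14 and 6.03 CPM in Ripk1-Con. Mice 28 and 39 were high, and mice 34 and 37 lay within the range of the controls (log2 fold change 0.54 ± 0.26, unadjusted p = 0.0638, and 0.38 without mouse 28). Cdk4, the kinase partner of the D cyclins, stood at 38.4, 30.5, 28 and 33.2 CPM against 26.2, 25.2, 31.4 and 24.5 CPM. The groups overlapped through Ripk1-Con mouse 40 (log2 fold change 0.28 ± 0.13, unadjusted p = 0.0574, and 0.19 without mouse 28).

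The cyclin E genes also overlapped between the groups. Ccne1 stood at 1.37, 1.28, 1.24 and 1.01 CPM in Ripk1-hepKO, against 0.371, 1.28, 1.30 and 0.712 CPM in Ripk1-Con, with a log2 fold change of 0.42 ± 0.38 (0.36 without mouse 28). Ccne2 stood at 0.403, 1.31, 1.33 and 1.95 CPM against 1.37, 1.29, 2.03 and 1.09 CPM. Mouse 28 was the lowest of all 8 mice for Ccne2, at 0.303 times the median of the other 7. The log2 fold change of Ccne2 was -0.21 ± 0.43 with all mice and 0.10 without mouse 28. Cdk2, the kinase bound by cyclin E, had a narrow range of 6.31 to 8.91 CPM over the 8 mice and a log2 fold change of 0.03 (95% confidence interval -0.30 to 0.37, and -0.0027 without mouse 28).

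Taking the 8 G1/S regulators as a list, 6 had a log2 fold change above 0 and the median was 0.35, or 0.27 without mouse 28. The median ran from 0.22 without Ripk1-Con mouse 29 to 0.50 without Ripk1-Con mouse 40. Without mouse 28, 7 of the 8 had a log2 fold change above 0. By mean CPM all 8 were then higher in Ripk1-hepKO than in Ripk1-Con, although for Cdk2 the means were 7.886 and 7.884 CPM.

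**Figure D2:**
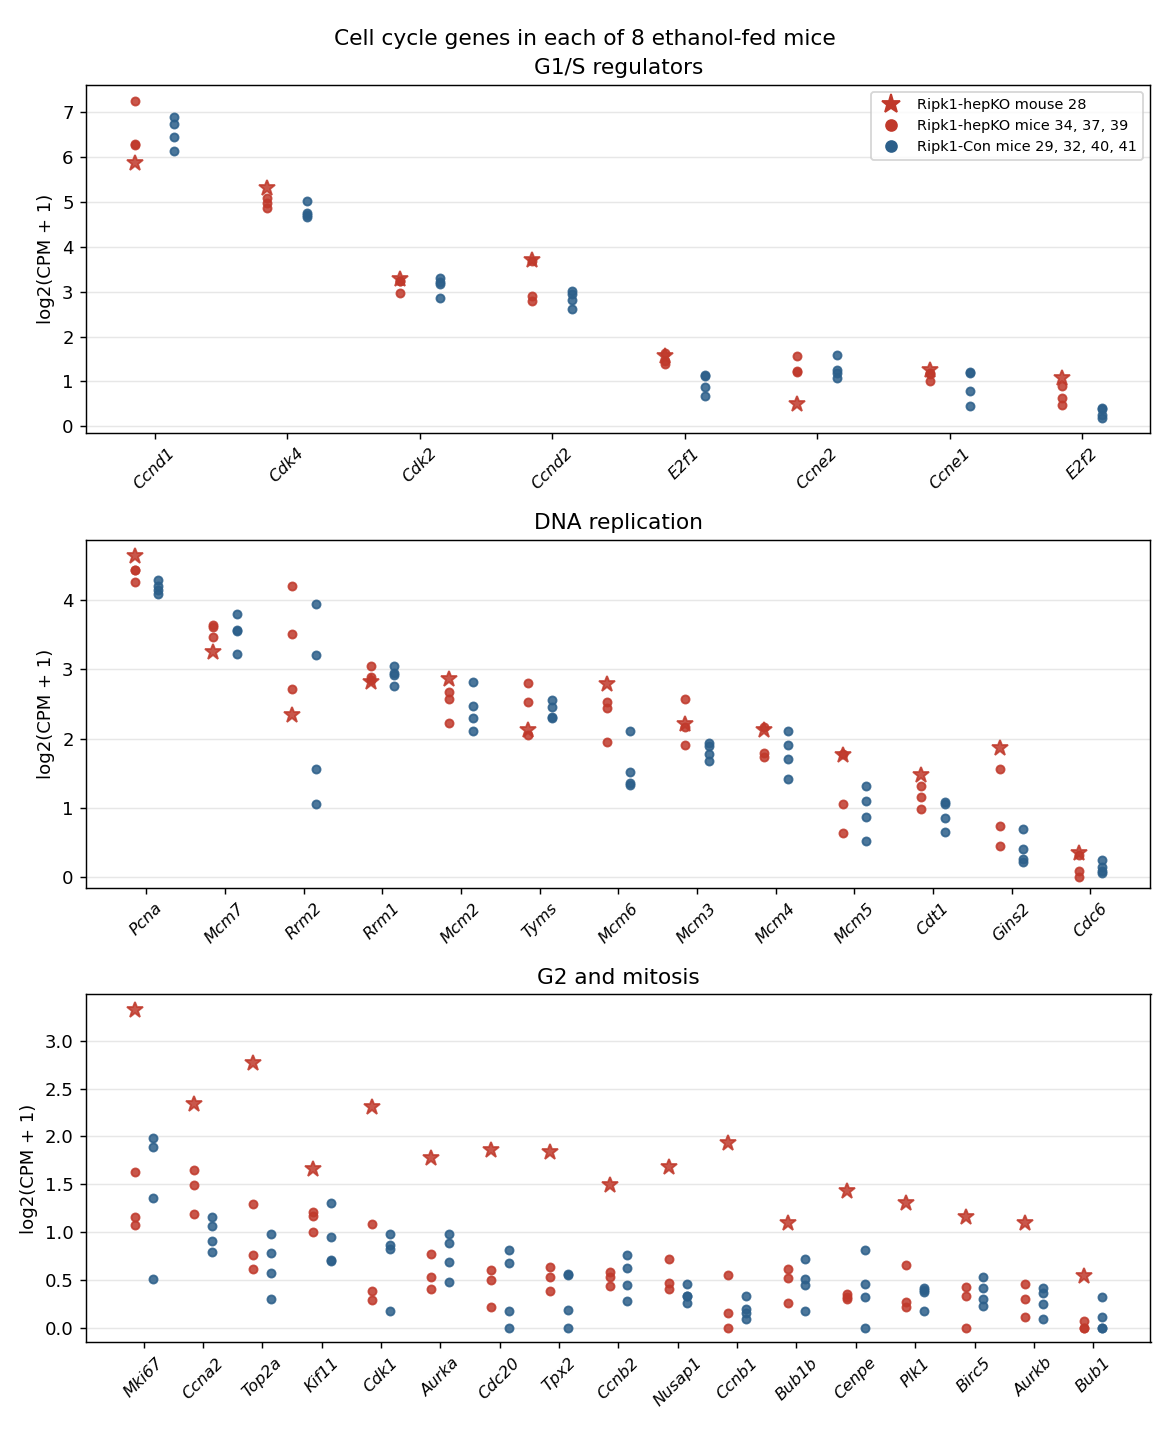
Level of each of the 38 members in each of 8 mice as log2(CPM + 1) on the vertical axis, in 3 panels by role and ordered by mean level. Red marks are Ripk1-hepKO (the star is mouse 28) and blue circles are Ripk1-Con. For all 17 genes of G2 and mitosis the star is the highest mark, which it is for only 4 of 8 G1/S regulators and 6 of 13 replication genes.

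The replication genes include the MCM helicase, which unwinds DNA at the fork and is loaded in G1 with the help of CDC6 and CDT1. Mcm3 and Mcm6 were the 2 subunits with an unadjusted p under 0.05. Mcm6 (ENSMUSG00000026355, chr1:128331590-128359664, minus strand) stood at 5.9, 2.87, 4.46 and 4.75 CPM in Ripk1-hepKO, against 1.57, 3.33, 1.53 and 1.85 CPM in Ripk1-Con. Only Ripk1-Con mouse 32 reached into the range of the Ripk1-hepKO mice. The difference on the log2 scale was 1.11 ± 0.32 (edgeR's quasi-likelihood test, unadjusted p = 0.00624), and 0.95 without mouse 28.

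Mcm3 stood at 3.61, 3.51, 2.76 and 4.93 CPM against 2.2, 2.83, 2.72 and 2.45 CPM. Mouse 37 lay just under the highest control, and mouse 39, not mouse 28, was the highest. The log2 fold change was 0.54 ± 0.21 (unadjusted p = 0.0315), and it was 0.55 without mouse 28.

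Mcm5 was at 2.40, 0.558, 1.07 and 2.42 CPM in Ripk1-hepKO, against 0.827, 1.49, 0.432 and 1.14 CPM in Ripk1-Con. Mice 28 and 39 were high and mice 34 and 37 lay among the controls (log2 fold change 0.72 ± 0.51, unadjusted p = 0.193, and 0.47 without mouse 28). Mcm2 was at 6.27, 3.68, 4.93 and 5.38 CPM against 3.94, 3.30, 6.08 and 4.56 CPM, with a log2 fold change of 0.19 ± 0.24 that became 0.07 without mouse 28. Mcm4 had a log2 fold change of 0.22 (95% confidence interval -0.36 to 0.80), or 0.14 without mouse 28. Mcm7, the most abundant subunit per kilobase (2.37 CPM per kilobase), had one of -0.05 (95% confidence interval -0.42 to 0.31), or 0.03 without mouse 28. Mcm7 lay between 8.36 and 12.9 CPM in all mice.

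Gins2 had the greatest log2 fold change of the 35 tested members. It lies at ENSMUSG00000031821, chr8:120578633-120589304, minus strand, and encodes a subunit of GINS, which joins MCM and CDC45 in the active helicase. It stood at 2.66, 0.669, 0.374 and 1.95 CPM in Ripk1-hepKO, against 0.20, 0.162, 0.332 and 0.617 CPM in Ripk1-Con. Mice 28 and 39 were far above the rest, mouse 34 was just above the highest control, and mouse 37 was within the controls. Its log2 fold change was 2.12 ± 0.68 (edgeR's quasi-likelihood test, unadjusted p = 0.0117), and 1.63 without mouse 28.

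The licensing factors were low. Cdt1 stood at 1.78, 1.23, 0.981 and 1.5 CPM against 1.08, 0.566, 1.13 and 0.807 CPM, and mouse 37 alone among the Ripk1-hepKO mice lay within the range of the controls (log2 fold change 0.63 ± 0.31, unadjusted p = 0.0727, and 0.48 without mouse 28). Cdc6 was not tested, with 0 to 15 counts a library and group means of 0.149 ± 0.135 and 0.105 ± 0.0632 CPM (SD, n = 4 each).

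Pcna encodes the sliding clamp of the DNA polymerases. It stood at 23.9, 18.2, 20.6 and 20.7 CPM in Ripk1-hepKO, against 16.1, 17.5, 18.5 and 16.7 CPM in Ripk1-Con. Mouse 34 lay just under the highest control mouse, and the remaining Ripk1-hepKO mice were above all controls. On the log2 scale the fold change was 0.28 ± 0.11 (edgeR's quasi-likelihood test, unadjusted p = 0.0347), and 0.21 without mouse 28, with an unadjusted p of 0.0748.

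The enzymes that supply nucleotides showed no difference beyond the spread between mice. Rrm2, the small subunit of ribonucleotide reductase, was the most variable, at 4.07, 10.4, 5.61 and 17.5 CPM in Ripk1-hepKO, against 1.08, 1.96, 14.3 and 8.22 CPM in Ripk1-Con. High and low mice occurred in both groups, and the log2 fold change of 0.56 had a 95% confidence interval from -1.18 to 2.30 and was 0.82 without mouse 28. Tyms, thymidylate synthase, stood at 3.35, 3.15, 4.79 and 5.97 CPM against 4.91, 3.90, 3.98 and 4.49 CPM, a log2 fold change of 0.00 (95% confidence interval -0.51 to 0.52) that was 0.11 without mouse 28 and -0.19 without mouse 39. Rrm1, the large subunit of the reductase, was at 5.75 to 7.27 CPM in all mice with a log2 fold change of -0.02, or 0.01 without mouse 28.

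Of the 12 replication genes tested, 10 had a log2 fold change above 0, with a median of 0.41. Without mouse 28 all 12 were above 0 and the median was 0.34. Without Ripk1-hepKO mouse 39, the highest for 5 of the 13 replication genes, the median was 0.22.

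The mitosis genes were low in 7 of the 8 mice and high in mouse 28. Per kilobase of exon their levels ran from 0.0244 to 0.406 CPM over the 8 mice, with a median of 0.151, against a median of 0.704 for the replication genes. For all 17 genes mouse 28 had the highest level and at least 2 times the median of the other 7. The median ratio of mouse 28 to that median was 5.01. It ran from 2.15 for Kif11, the motor that pushes spindle poles apart, to 24.6 for Ccnb1, with Bub1 having no ratio because its median in the other mice was 0.

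Ccna2 (ENSMUSG00000027715, chr3:36564865-36572150, minus strand) encodes cyclin A2, which acts in S phase and G2, and it was the mitosis gene that separated the groups. It stood at 4.07, 1.81, 1.28 and 2.13 CPM in Ripk1-hepKO, against 0.884, 1.1, 0.731 and 1.23 CPM in Ripk1-Con. Mouse 28 was the highest, and mouse 37 was just above the highest control. Its log2 fold change was 1.23 ± 0.37 (edgeR's quasi-likelihood test, unadjusted p = 0.00865), and 0.81 without mouse 28, with an unadjusted p of 0.0195.

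The G2 kinase and its cyclin were high in mouse 28 alone. Cdk1, the kinase that starts mitosis, stood at 3.96, 0.223, 0.304 and 1.12 CPM in Ripk1-hepKO, against 0.827, 0.776, 0.133 and 0.974 CPM in Ripk1-Con. Mice 34 and 37 were below 3 of the 4 controls. This gave a log2 fold change of 1.04 ± 0.89 with mouse 28 and -0.29 ± 0.70 without it. Ccnb1, cyclin B1, was not tested. It stood at 2.80 CPM (153 counts) in mouse 28 and at 0.112, 0 and 0.469 CPM in mice 34, 37 and 39, against 0.114, 0.145, 0.0664 and 0.261 CPM in Ripk1-Con. Apart from mouse 28, no library held more than 26 counts of Ccnb1, and mouse 37 held none, which allows up to 0.0701 CPM there. Ccnb2, the other cyclin B, was at 1.81 CPM in mouse 28 and at 0.214 to 0.695 CPM in the other 7 (log2 fold change 0.77 ± 0.60, and -0.08 without mouse 28).

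Mki67 (ENSMUSG00000031004, chr7:135689784-135716361, minus strand), the source of the proliferation antigen Ki-67, was also high in mouse 28 alone. It stood at 8.96, 1.12, 1.24 and 2.09 CPM in Ripk1-hepKO, against 1.57, 2.96, 0.432 and 2.71 CPM in Ripk1-Con. Apart from mouse 28, the highest mice were controls 32 and 41. The difference on the log2 scale was 0.80 ± 0.77 with all mice and -0.38 ± 0.55 without mouse 28.

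Top2a, the topoisomerase that untangles sister chromosomes, stood at 5.81, 0.53, 0.701 and 1.46 CPM against 0.485, 0.727, 0.232 and 0.974 CPM. Mouse 28 was 8.29 times the median of the other 7, mouse 39 was the next highest, and mice 34 and 37 lay among the controls. Its log2 fold change was 1.80 ± 0.78 (edgeR's quasi-likelihood test, unadjusted p = 0.0456), and 0.56 without mouse 28, with an unadjusted p of 0.303.

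The spindle genes Nusap1 and Tpx2, whose proteins act on microtubules, were also highest in mouse 28. Nusap1 stood at 2.22, 0.39, 0.327 and 0.65 CPM against 0.20, 0.259, 0.266 and 0.38 CPM, with a log2 fold change of 1.70 ± 0.64 (unadjusted p = 0.025) that became 0.73 without mouse 28. Tpx2 stood at 2.57, 0.307, 0.444 and 0.56 CPM against 0.143, 0.469, 0 and 0.475 CPM, with a log2 fold change of 1.77 ± 0.91 that became 0.62. For both, mouse 39 was the second highest and the other mice formed one low range.

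Plk1, a mitotic kinase, stood at 1.47, 0.167, 0.21 and 0.578 CPM against 0.314, 0.129, 0.299 and 0.332 CPM. Mice 34 and 37 lay below 3 of the 4 controls, and the log2 fold change of 1.21 ± 0.70 was 0.31 without mouse 28. Kif11 stood at 2.16, 1.31, 1 and 1.25 CPM against 0.627, 0.938, 0.631 and 1.47 CPM. Its ratio of mouse 28 to the others was the smallest given above, and Ripk1-Con mouse 41 was the second highest (log2 fold change 0.63 ± 0.37, and 0.36 without mouse 28).

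The remaining mitosis genes were near or below 1 CPM outside mouse 28. They are Aurka and Aurkb, the Aurora kinases, Birc5, the survivin subunit of the Aurora B complex, Bub1 and Bub1b of the spindle checkpoint, Cdc20, an activator of the anaphase-promoting complex, and Cenpe, a kinetochore motor. In mouse 28 their levels were 2.42 CPM for Aurka, 1.14 CPM for Aurkb, 1.23 CPM for Birc5, 0.458 CPM for Bub1, 1.14 CPM for Bub1b, 2.64 CPM for Cdc20 and 1.70 CPM for Cenpe. In the other 7 mice none of them exceeded 0.97 CPM, the level of Aurka in Ripk1-Con mouse 32. Bub1 held 0 counts in 4 libraries. The log2 fold changes of the 6 tested genes were 0.46 to 1.29 with mouse 28. Without it they were -0.53 for Aurka, 0.10 for Aurkb, -0.53 for Birc5, -0.05 for Bub1b, -0.04 for Cdc20 and -0.48 for Cenpe.

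As a list, all 15 tested mitosis genes had a log2 fold change above 0 with all mice, and the median was 1.04. Without mouse 28, 7 of 15 were above 0 and the median was -0.04. Without mice 28 and 40 it was -0.17, and limma voom with sample quality weights, which counts deviating libraries less, gave 0.30. By mean CPM, all 17 were higher in Ripk1-hepKO with mouse 28 and 8 of 17 without it.

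Over the 35 tested members of all 3 lists, mouse 28 was the highest of the 8 mice for 24 (68.6%), against the 26.3% of all genes given above. It reached at least 2 times the median of the other 7 for 19 (54.3%), against 8.77%. The 3 untested members also had their highest level in mouse 28. Mouse 39 was the highest for 6 of the 38 members, 5 of them replication genes.

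**Figure D3:**
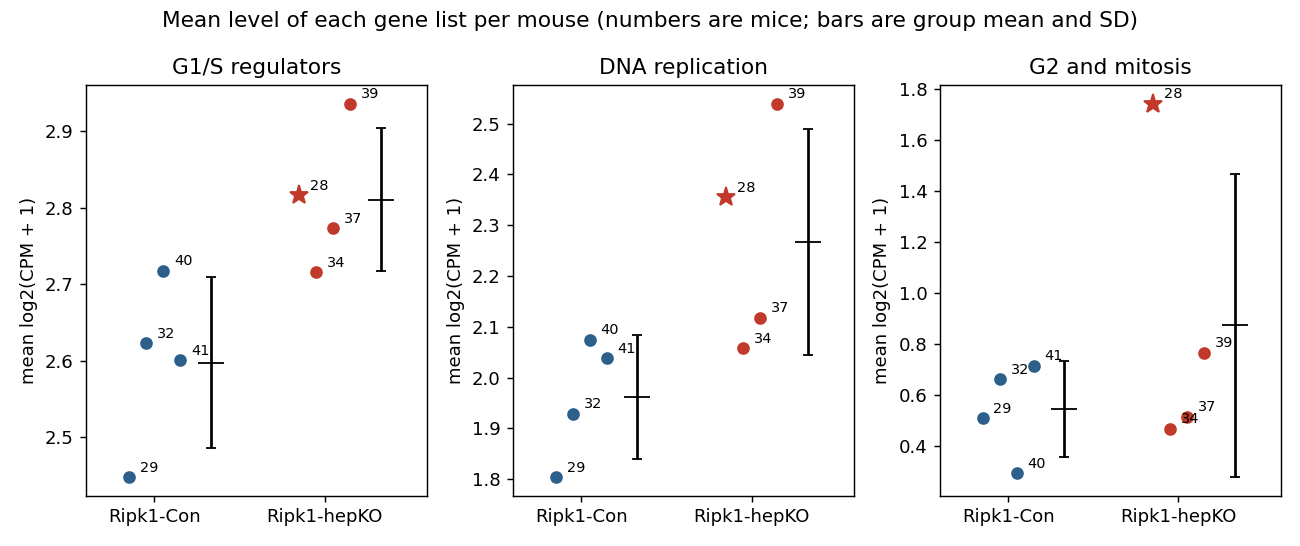
Mean log2(CPM + 1) over each list (vertical axis) in each mouse, numbered, with group means and SD as bars, for Ripk1-Con (blue) and Ripk1-hepKO (red, with a star for mouse 28). For G2 and mitosis mouse 28 stands at 1.74 and all others at 0.77 or less, while mouse 39 is the highest for the other lists.

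Averaged over a list as log2(CPM + 1), the G1/S regulators stood at 2.82, 2.72, 2.77 and 2.94 in Ripk1-hepKO, against 2.45, 2.62, 2.72 and 2.6 in Ripk1-Con. The groups met at mice 34 and 40, and mouse 29 was the lowest. The replication genes stood at 2.36, 2.06, 2.12 and 2.54 against 1.80, 1.93, 2.07 and 2.04. Mice 28 and 39 were above all controls, mouse 37 was slightly above them, and mouse 34 was within them. The mitosis genes stood at 1.74, 0.47, 0.52 and 0.77 against 0.51, 0.66, 0.29 and 0.72, and apart from mouse 28 the groups lay among each other. Without mouse 28 the difference of group means stayed at 0.21 for the G1/S regulators. It went from 0.31 to 0.28 for replication and from 0.33 to 0.04 for mitosis.

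Other genes of the pathway were taken from lists of the same roles. Of 16 further genes of the RB, E2F and D cyclin system, 10 were above 0 and the list median was 0.05. Of the 16, 0 passed the false discovery rate by edgeR and by DESeq2. By edgeR's quasi-likelihood test 1 of the 16 was higher at an unadjusted p under 0.05, against 3.86% of all genes. That gene was E2f3, the remaining activating E2F, at 15.4, 13.3, 10.3 and 10.8 CPM in Ripk1-hepKO, against 5.08, 7.87, 8.83 and 7.93 CPM in Ripk1-Con. Every Ripk1-hepKO mouse was above every control, as for E2f1 and E2f2 (log2 fold change 0.75 ± 0.20; edgeR's quasi-likelihood test, unadjusted p = 0.00482, adjusted p = 0.742), and without mouse 28 the value was 0.63. Over all genes tested, 2.01% had groups that did not overlap in this direction.

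E2f4, which acts mainly in repressor complexes of resting cells, had a log2 fold change of 0.25 ± 0.13 (0.20 without mouse 28). The atypical repressors E2f7 and E2f8, which hepatocytes use in becoming polyploid, had log2 fold changes of 0.19 ± 0.72 and -0.15 ± 0.65. Without mouse 28 that of E2f7 was 0.24. E2f8 was at 13.4 CPM in mouse 28 and at 1.34 to 8.55 CPM in the other 7, and without mouse 28 its log2 fold change was -1.10 ± 0.49. Rb1, the retinoblastoma gene, was at 6.19 to 6.58 CPM in Ripk1-hepKO and 6.55 to 8.04 CPM in Ripk1-Con (log2 fold change -0.23 ± 0.13, and -0.25 without mouse 28). Ccnd3, the third D cyclin, had a log2 fold change of 0.14 ± 0.21 (0.05 without mouse 28).

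Of 38 further replication genes, 37 were tested and 26 were above 0, with a median of 0.11 (0.12 without mouse 28). None passed the false discovery rate by edgeR or DESeq2. By edgeR's quasi-likelihood test 1 of the 37 was higher at an unadjusted p under 0.05, against 3.86% of all genes. That gene was Chaf1b, a subunit of the chromatin assembly factor that follows the fork, at 2, 1.17, 0.958 and 0.83 CPM against 0.285, 0.533, 0.465 and 0.784 CPM. Its groups did not overlap, which held for 2 genes of this list in the higher direction, against 2.01% of all genes. The log2 fold change of Chaf1b was 1.25 ± 0.40 (edgeR's quasi-likelihood test, unadjusted p = 0.0118), or 0.91 without mouse 28. Gmnn, the inhibitor of CDT1, had a log2 fold change of 0.51 ± 0.23 (0.41 without mouse 28).

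Of 30 further mitosis genes, 25 were tested and 20 were above 0 with a median of 0.39, which became -0.01 without mouse 28, when 11 were above 0. Mouse 28 had the highest level for 23 of the 30. Ube2c, the ubiquitin-conjugating enzyme of the anaphase-promoting complex, was at 2.57 CPM in mouse 28 and at 0.057 to 0.758 CPM in the others. Racgap1, needed for cytokinesis, was at 2.42 CPM in mouse 28 and at 0.114 to 0.957 CPM in the others. Foxm1, the factor that activates mitotic genes, was at 1.47 CPM in mouse 28 and at 0.0836 to 0.722 CPM in the others. Their log2 fold changes were 1.91 ± 0.80, 1.75 ± 0.73 and 0.84 ± 0.67, and 0.89, 0.93 and 0.13 without mouse 28. None of the list passed the false discovery rate by either tool. In edgeR 2 of the 25 tested had an unadjusted p under 0.05, both higher, against 3.86% of all genes.

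Inhibitors of the cycle were listed as 14 CDK inhibitors and p53-linked brakes, of which 12 were tested, with a median of 0.03 and 0 passing by either tool. In edgeR 1 of the 12 was lower at an unadjusted p under 0.05, against 2.82% of all genes. Cdkn1a, which encodes the CDK inhibitor p21, stood at 74.2, 45.2, 16.7 and 21.6 CPM in Ripk1-hepKO, against 27.8, 42.8, 63.4 and 39 CPM in Ripk1-Con. Mouse 28 had the highest level of this inhibitor as well as of the mitosis genes, and the remaining Ripk1-hepKO mice were mid to low (log2 fold change -0.13 ± 0.46, and -0.64 without mouse 28). Btg2, an antiproliferative gene that is also induced early by stress, was at 365 CPM in mouse 28 and at 9.30 to 33.6 CPM in the other 7 (log2 fold change 2.47 ± 1.13, and -0.18 without mouse 28). Gadd45b, a stress-induced growth arrest gene, was the lower one, at 2.86, 3.18, 4.48 and 5.61 CPM against 4.73, 9.30, 7.87 and 6.93 CPM. Its log2 fold change was -0.84 ± 0.27 (edgeR's quasi-likelihood test, unadjusted p = 0.0129), and -0.70 without mouse 28, which had its lowest level.

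**Figure D4:**
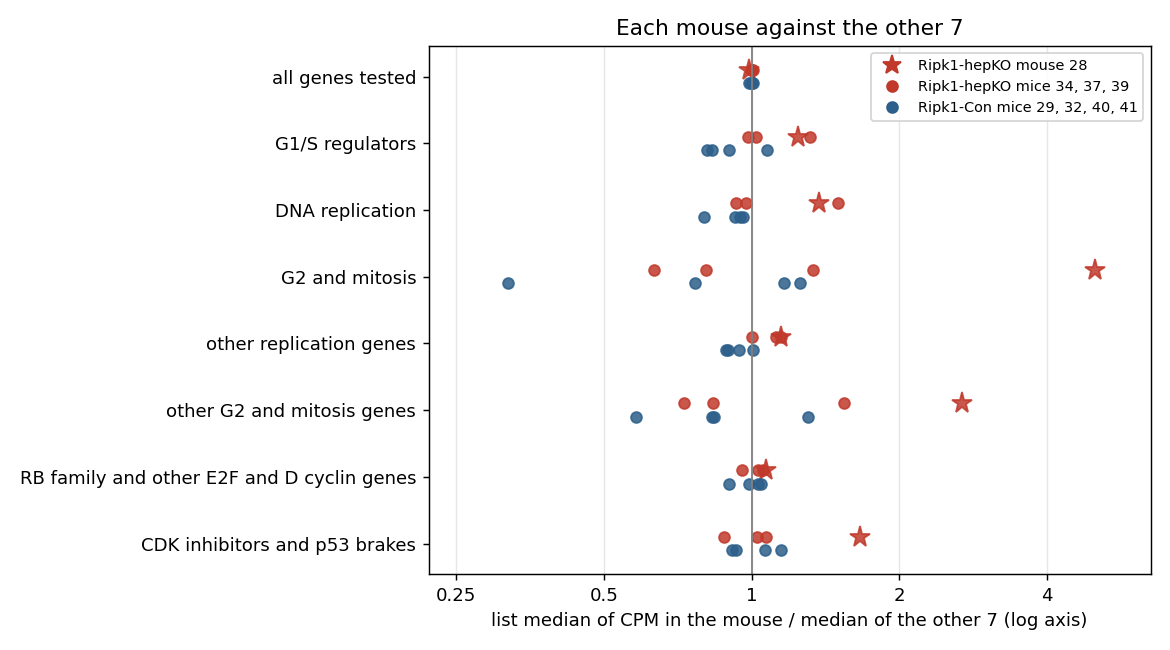
Each mark is 1 mouse, placed on a log axis at the median over a gene list of its CPM divided by the median CPM of the other 7 mice. For G2 and mitosis mouse 28 (star) lies at 5.01 and for the other mitosis genes at 2.68, whereas over all genes tested every mouse lies near 1.

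Markers of other liver cells moved with mouse 28 as well. It had the highest level for 8 of 8 cholangiocyte markers, with a summed level of 63.4 CPM against 13.8 to 35.8 CPM in the other 7, and Krt19 was at 0.898 CPM. It had the highest level for 7 of 10 stellate cell markers, with a sum of 434 CPM against 258 to 343 CPM. It led for 5 of 10 neutrophil markers (sum 53.2 CPM against 4.38 to 41.1 CPM) and 5 of 10 monocyte markers. The neutrophil markers Ltf, Ngp and Mmp8 were at 0.0367, 0.495 and 1.65 CPM in mouse 28, below their medians of 0.558, 1.45 and 1.68 CPM in the other 7. The monocyte sum lay inside the range of the others, but it is nearly all Fn1, which hepatocytes also make. Without Fn1 it was 48.2 CPM in mouse 28 against 12 to 31.4 CPM. It led for 2 of 10 markers each of hepatocytes, Kupffer cells and endothelial cells, 2 of 8 of B and plasma cells and 1 of 10 of T and NK cells, and its sums of these lists lay inside the range of the others. Among the hepatocyte markers, mouse 28 was the highest for Tat and Fgb. It was the lowest for Alb, Cps1, Serpina1c and Asgr1, with Alb at 48465 CPM against 63058 to 90592 CPM. For the remaining hepatocyte markers it lay inside the range of the others. Its erythroid sum was the lowest of the 8, at 191 CPM against 201 to 638 CPM, with 2 of 9 erythroid markers at 0. The defining markers of cholangiocytes, stellate cells and neutrophils were all above 0 in mouse 28, although Ltf lay below the floor of 0.055 CPM in that library. The part of these cells in the mitosis gene levels was not tested.

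Without mouse 28 the summed levels of all 10 marker lists overlapped between the genotypes, by a narrow margin for stellate cells, at 312 to 343 CPM in Ripk1-hepKO and 258 to 315 CPM in Ripk1-Con. The hepatocyte sum is mostly Alb, with a variable part from Fgb, at 4344 to 15271 CPM in these mice. Alb itself did not overlap, at 63058 to 68917 CPM in Ripk1-hepKO against 74428 to 90592 CPM in Ripk1-Con. Ttr was also lower without overlap, and the other hepatocyte markers overlapped. In this direction the groups did not overlap for 493 of the 15500 genes tested without mouse 28. For the G1/S and replication members, no marker list was tested for its part in the difference. Mouse 40, which had the lowest level of the mitosis genes, also had the lowest sums of 6 of the 10 marker lists (Kupffer cell, neutrophil, T and NK cell, B and plasma cell, stellate cell and cholangiocyte), with 4 of 10 neutrophil markers at 0.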

How the data were processed

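Bulk liver RNA from 8 mice was poly(A)-selected, made strand-specific with dUTP and read from both ends at 150 bp, per the labels' protocols. The values are raw counts, whole numbers for each Ensembl gene, as the authors deposited them. Per the submitters' processing notes, the build was GRCm38.p6 and the tools included STAR 2.5.2b, StringTie 2.2.1, FastQC 0.11.5 and DESeq2 1.38.1, whose roles and order are not given. The counting tool, its strand setting and the annotation are not given in the sources used here, so overlapping and antisense genes are uncertain. Symbols, exon lengths and positions came from GENCODE M21, where 55154 gene IDs matched and 181 did not. No pair of libraries was alike within sampling noise (chi-square per degree of freedom at least 36.8 over 28 pairs). Floors cover counting error only, since reads lacking molecular identifiers can be copies of a molecule. The confidence intervals of fold changes come from the quasi-likelihood fit and also include the spread between mice.

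Counts were tested in R 4.3.3 with edgeR 4.0.16 (filterByExpr by genotype, TMM, robust quasi-likelihood fit of genotype, Benjamini-Hochberg over all genes tested, false discovery rate 0.05). Each SE was derived from the quasi-likelihood F statistic of the gene. Levels of a list are means of log2(CPM + 1) over members with a mean of at least 0.1 CPM. Values in every mouse are given for the 6 members of smallest p in each list and for 12 genes fixed by name, and the 2 of smallest p in each further list are named beside Cdkn1a, Rb1, Ccnd3, Foxm1, E2f7 and E2f8. The members and lists were chosen with earlier results of these data known. On simulated counts for this comparison over 15234 genes, the test called 2% of 50 genes changed 1.5-fold, 38% at 2-fold, 92% at 4-fold and 94% at 8-fold. The changed genes were drawn only from genes with a mean of at least 1 CPM. These shares therefore do not cover members below that level, such as E2f2, Plk1 and Aurkb. Each simulated gene was drawn independently, so no simulated library stood apart over many genes as that of mouse 28 did. The shares do not describe the test where a library deviates in that way. Alternatives were other tests (DESeq2 1.42.0 Wald, limma 3.58.1 voom with and without sample weights, edgeR not robust), other scalings (DESeq2 size factors, plain library size), other gene filters (none, 1 CPM in 4 libraries, coding genes), other pseudocounts, and leaving out each mouse or mice 28 and 40 together.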

Additional observations from a re-analysis of the deposited data

Results flagged for a closer look

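In 9 of 76 groups of 4 mice examined (38 members in each genotype), 1 mouse lay far from the other 3 relative to the range of its group. For values with a normal distribution about 1 in 20 such groups would by chance. That rate may not hold here, since many of these levels lie near the floor, and the rate over all genes was not computed. The genes are also not independent of each other, since all of them are read from the same mice. In 8 of the 9 it was Ripk1-hepKO mouse 28, and all 9 were genes of G2 and mitosis. In that mouse Mki67 stood at 8.96 CPM against 1.12 to 2.09 CPM in mice 34, 37 and 39. Ccnb1 stood at 2.8 CPM and Ccnb2 at 1.81 CPM, against at most 0.469 and 0.502 CPM. Cdc20 stood at 2.64 CPM and Bub1 at 0.458 CPM, against at most 0.523 and 0.0542 CPM. Cenpe stood at 1.7 CPM, Tpx2 at 2.57 CPM and Nusap1 at 2.22 CPM, against at most 0.28, 0.56 and 0.65 CPM. The remaining case was low: Plk1 at 0.129 CPM (8 counts) in Ripk1-Con mouse 32, against 0.299 to 0.332 CPM in the other controls.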

How the results depend on the processing

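No member passed the false discovery rate under any alternative run, while the DESeq2 Wald test called 36 genes in all. The count of 9 members higher at an unadjusted p under 0.05 was 5 with a filter of 1 CPM in 4 libraries and 5 to 12 with single mice left out. That filter took E2f2, Gins2, Top2a and Nusap1 of the 9 out of the test. With single mice left out, the median log2 fold change ran from 0.22 to 0.50 for G1/S regulators, from 0.22 to 0.48 for replication and from -0.04 to 1.37 for mitosis, where voom with sample weights gave 0.30 and leaving out mice 28 and 40 gave -0.17. The difference in G1/S level was 0.32 with a pseudocount of 0.25 CPM and 0.10 with 5 CPM. Single genes were followed for a set of 38 named genes tested, and 27 of these had all their values on one side of 0. This set is not the 38 members, since it mixes members with genes of the further lists. Tested members outside it include Cdk2, Mcm7, Rrm1, Ccnb2, Birc5, Aurka, Bub1b, Cdc20 and Cenpe. Their log2 fold changes lay on different sides of 0 with and without mouse 28. Mcm4 and Aurkb, also outside it, were above 0 without mouse 28 and below 0 without mice 28 and 40. Tyms, at 0.00, ran from -0.19 to 0.13. With single mice left out, Ccnd1 ran from -0.43 to 0.10, Ccne2 from -0.51 to 0.10, Cdk1 from -0.29 to 1.40, Mki67 from -0.38 to 1.09, Cdkn1a from -0.64 to 0.12, Btg2 from -0.18 to 2.92, E2f7 from -0.66 to 0.65 and E2f8 from -1.10 to 0.17. Without mice 28 and 40, Ccnd1 was 0.16, Ccne2 0.30, Cdk1 -0.60, Mki67 -0.70, Btg2 -0.32, E2f7 -0.05, Ccnd3 -0.06 and Foxm1 -0.02. Voom with sample weights gave 0.14 for Ccne2, -0.37 for Cdk1, -0.21 for Mki67, -0.42 for E2f7, -0.05 for Ccnd3 and -0.25 for Foxm1, and plain voom gave -0.15 for E2f7. The cause of these changes was not tested. The untested Cdc6, with 0 to 15 counts a library, is below what this depth can compare. No paired analysis was possible because no mouse number occurs in both groups.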
